A study of Mus musculus with 6 samples.

Results

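Genes of the BCL2 family with opposite roles in cell survival were compared between thymocytes with and without the *SCL* and *LMO1* oncogenes. The list held 3 pro-survival genes, *Bcl2*, *Bcl2l1* and *Mcl1*, and 7 pro-death genes, *Bax*, *Bak1*, *Bcl2l11*, *Bid*, *Bbc3*, *Pmaip1* and *Bad*. Members were the probe sets of the array for which the platform annotation names 1 of these genes and no other gene. By this rule 24 of 22690 probe sets belonged to 9 of the 10 genes, out of 12393 genes named on the platform. *Bax* was not analysed here, because the annotation used named no probe set for it alone. Thymocytes came from 3-week-old C57BL6 mice. All mice were *Cd3ε*-/-, which removes a chain of the CD3 complex that the pre-T cell receptor needs for signaling. Of the 6 arrays, 3 were labelled *SCL-LMO1*, from mice that also carried *SCL* under the *Sil* promoter and *LMO1* under the *Lck* promoter, and 3 were labelled control, from mice with the *Cd3ε* deletion alone. The labels do not tell whether the 3 arrays of a group stand for separate animals, so the p-values measure only the spread between these arrays, which may be technical.

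The BCL2 family decides whether a stressed cell opens its mitochondrial outer membrane and dies. Pro-survival members such as BCL2, BCL-XL (the product of *Bcl2l1*) and MCL1 hold the pore-forming effectors BAX and BAK in check, and the BH3-only proteins, among them BIM (*Bcl2l11*), BID, PUMA (*Bbc3*), NOXA (*Pmaip1*) and BAD, bind and neutralize the pro-survival members or activate the effectors. In the thymus, MCL1 and BCL2 keep early progenitors alive downstream of interleukin 7, BCL-XL protects cells at the double positive stage, and BIM is required for the death of self-reactive cells.

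Values are log2 expression from the authors' RMA summary, 1 per probe set and array, and differences are log2 values of the arrays labelled *SCL-LMO1* minus those labelled control. Since probes differ in affinity, levels were compared between arrays and not between probe sets. *Lmo1*, an introduced oncogene, goes against the labels, with values of 5.11, 5.07 and 4.86 where *SCL-LMO1* is given and of 6.64, 6.84 and 6.77 where control is given. *Cpa3* and *Lyl1*, which the study describes as raised by the oncogenes, were also lower, by log2 differences of −2.53 and −1.22. The directions given here therefore oppose those of the study. Exchanging the labels would turn each sign below and change no size and no p-value. *Tal1*, the mouse gene for SCL, lay under the filter on low values, at 4.63 and 4.35. At that low level its arrays labelled *SCL-LMO1* all lay above the control arrays, in the direction of the labels. *Cd3e* had means of 8.58 and 8.52, a difference of 0.066. Its probe set thus read high under both labels although all mice were *Cd3ε*-/-, and the reason was not tested. The cells' identity was checked with genes of early and DN3 thymocytes, of which 11 were tested, and their mean level ran from 8.83 to 9.14 over the control arrays and from 9.14 to 9.40 over the others. Part of the list differed between the labels. *Ptcra*, the pre-T cell receptor alpha chain, passed limma with a difference of 1.28 (adjusted p = 0.0230). *Ptcra*, *Rag1* (0.97) and *Rag2* (0.82) were higher in the arrays labelled *SCL-LMO1* without overlap, 3 of 11 against 7.36% of all probe sets. The median of the 11 was 0.15, with *Dntt* (0.022), *Il2ra* (0.0072) and *Bcl11b* (0.032) near 0 and *Cd3g* (−0.18) and *Erg* (−0.23) below it. The study describes *Ptcra* as a direct target of E proteins, which SCL inhibits. The part of cell stage in the values below was not tested.

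The upstream sequences of the members are shown first, because SCL binds DNA as a heterodimer with E proteins at E-boxes (CANNTG) in a complex that can include GATA factors. No binding was measured in these arrays, and a match is a description of the letters alone. From the promoter table, made from RefSeq with the build GRCm38.p6, 9 of the 10 genes were used, with 15 start sites. *Pmaip1* was left out of this search, so its upstream sequence was not examined. The 250 bases before each start were searched on both strands for CANNTG and for GATA (TATC on the strand shown). An E-box was present in 9 of the 15 windows, against 66.2% of all 32851 windows of this length, and GATA in 3 of 15, against 53.6% of all. The windows printed here run 5′ to 3′ on the gene's strand, with E-boxes in capitals. They are that of *Bcl2* (chr1:106714291-106714540, minus strand), that of *Bcl2l1* farthest upstream (chr2:152831729-152831978, minus strand), that of *Mcl1* (chr3:95658471-95658720, plus strand) and the first of *Bcl2l11* (chr2:128125788-128126037, plus strand), the genes that carry the largest and the smallest differences below.
Bcl2: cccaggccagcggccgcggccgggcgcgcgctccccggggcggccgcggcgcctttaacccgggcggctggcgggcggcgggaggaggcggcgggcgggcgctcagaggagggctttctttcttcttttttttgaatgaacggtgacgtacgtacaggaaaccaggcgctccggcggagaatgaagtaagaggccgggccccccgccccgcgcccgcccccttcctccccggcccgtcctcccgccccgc
Bcl2l1: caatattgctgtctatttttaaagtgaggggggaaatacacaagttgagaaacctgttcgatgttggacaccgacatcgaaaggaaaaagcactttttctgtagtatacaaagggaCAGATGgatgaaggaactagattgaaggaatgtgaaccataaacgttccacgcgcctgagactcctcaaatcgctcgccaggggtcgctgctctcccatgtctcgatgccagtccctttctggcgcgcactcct
Mcl1: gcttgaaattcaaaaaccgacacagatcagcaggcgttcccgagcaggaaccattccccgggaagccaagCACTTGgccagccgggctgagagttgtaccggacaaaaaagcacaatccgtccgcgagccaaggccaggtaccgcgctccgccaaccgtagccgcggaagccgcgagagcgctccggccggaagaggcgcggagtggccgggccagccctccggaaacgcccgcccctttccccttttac
Bcl2l11: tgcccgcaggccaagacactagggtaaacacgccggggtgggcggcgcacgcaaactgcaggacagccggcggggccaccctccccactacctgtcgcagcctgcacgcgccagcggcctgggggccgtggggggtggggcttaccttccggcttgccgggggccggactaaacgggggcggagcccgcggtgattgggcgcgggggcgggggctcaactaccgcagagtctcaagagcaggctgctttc
The *Bcl2l1* window holds CAGATG, 134 bases before the start, a sequence that 14.4% of all windows hold on either strand. The *Mcl1* window holds CACTTG, 180 bases before the start. No CANNTG stood in the window of *Bcl2* or in either of the 2 windows of *Bcl2l11*, which were rich in G and C (74.8% in *Bcl2*, and 72.0% and 73.2% in *Bcl2l11*).

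No BCL2 family probe set passed the test between the labels. Of the 24 probe sets, 14 passed the filter on low values, 8 of pro-survival and 6 of pro-death genes. At a Benjamini-Hochberg adjusted p under 0.05 over all probe sets tested, limma called 0 of these 14, and over all 13776 probe sets it called 0.102%. The lowest adjusted p of a member was 0.490. At an unadjusted p under 0.05, 1 of 14 was higher in the arrays labelled *SCL-LMO1*, against 6.18% of all, and 0 of 14 were lower, against 2.67% of all. The values of the 2 groups did not overlap for 1 of 14, which was higher, against 7.36% of all that were higher without overlap and 5.82% that were lower. Rank products, the test of the study's methods, called 0 of 14 at a percentage of false positives under 0.1, against 0.798% of all. The lowest value of a member was 0.527. The study itself used a threshold of 0.01 after removing probe sets called absent, and 32 of all probe sets passed 0.01 here.

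**Figure D1:**
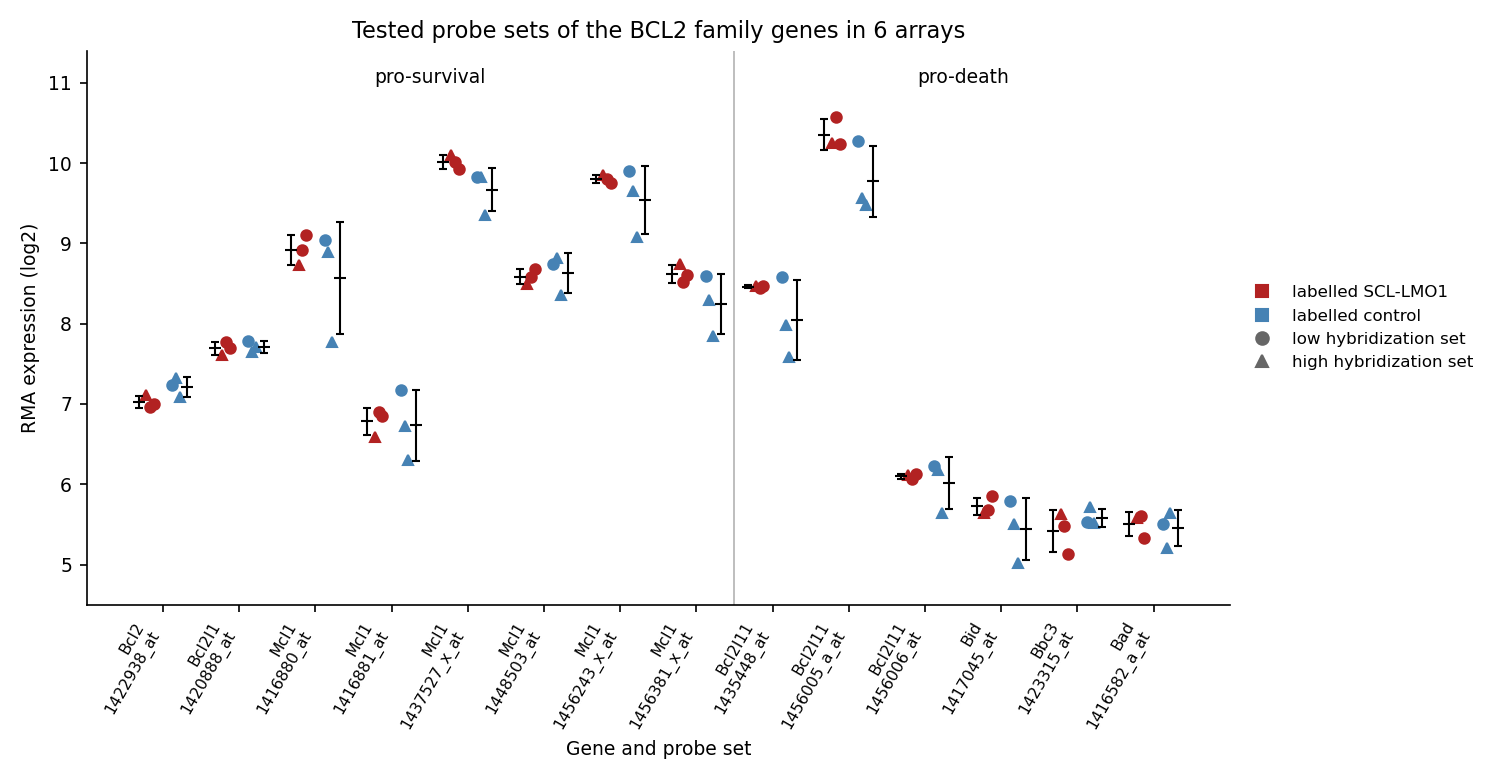
RMA expression (log2, vertical axis) of the 14 tested BCL2 family probe sets in each of the 6 arrays. Colour gives the label, the marker gives the hybridization set described in the text, and the black bars beside the points are the group mean ± SD (n = 3). The groups overlap for all probe sets but *Mcl1* 1437527_x_at, and control replicate 3 was the lowest array for 10 of the 14.

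Among the pro-survival genes, *Bcl2* showed the lowest difference and the probe sets of *Mcl1* most of the positive ones. *Bcl2*, the founding member of the family, read by the probe set 1422938_at, had values of 7.11, 6.97 and 7.00 under the label *SCL-LMO1*, against 7.24, 7.32 and 7.08 in the control arrays. The highest array labelled *SCL-LMO1* lay just above the lowest control array, so the groups overlapped. The difference was −0.19 (SE 0.14, 95% CI −0.50 to 0.13, limma adjusted p = 0.679), and it lay in the same direction in all 16 alternative fits.

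*Bcl2l1*, which encodes BCL-XL, had 4 probe sets, of which 1420888_at passed the filter. Its values were 7.61, 7.77 and 7.70 against 7.78, 7.64 and 7.70 in the control arrays, and the groups covered almost the same range. The difference of −0.015 had an SE of 0.14 and a 95% CI from −0.32 to 0.29 (limma adjusted p = 0.971), so differences within those bounds could not be told from 0 with 3 arrays a group. The sign of this value turned in 4 alternatives.

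*Mcl1*, which encodes a short-lived protein that early lymphoid cells depend on, had 6 probe sets and all 6 passed the filter. Differences were above 0 for 5 of them, with a median of 0.30, against a median of −0.0006 over all probe sets tested. For 1437527_x_at the values were 10.10, 10.01 and 9.92 under the label *SCL-LMO1*, against 9.83, 9.83 and 9.36 in the control arrays. All 3 arrays labelled *SCL-LMO1* lay above all 3 control arrays. The difference was 0.34 (SE 0.17, 95% CI −0.04 to 0.72), or 1.27-fold, with an unadjusted p of 0.0730 and an adjusted p of 0.586 in limma.

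The other *Mcl1* probe sets overlapped between the labels. For 1456381_x_at values were 8.74, 8.52 and 8.60 against 8.59, 8.29 and 7.84, with a difference of 0.38 (SE 0.20, limma adjusted p = 0.599). For 1416880_at they were 8.74, 8.91 and 9.10 against 9.04, 8.89 and 7.77, with a difference of 0.35 (SE 0.30, limma adjusted p = 0.707). In both, control replicate 3 lay well under the other 5 arrays. For 1456243_x_at values were 9.85, 9.81 and 9.75 against 9.90, 9.65 and 9.08, with a difference of 0.26. The 2 remaining *Mcl1* probe sets, 1416881_at and 1448503_at, differed by 0.049 and −0.052. Control replicate 3 was the lowest of the 6 arrays for all 6 *Mcl1* probe sets, and without it the differences were −0.051 for 1416880_at, 0.025 for 1456243_x_at, 0.18 for 1456381_x_at and 0.18 for 1437527_x_at. Without control replicate 1 they were 0.58 for 1416880_at and 0.44 for 1456243_x_at. The *Mcl1* differences were also lower after a further quantile normalization. They were then 0.16 for 1437527_x_at, 0.24 for 1456381_x_at, 0.20 for 1416880_at and 0.086 for 1456243_x_at. For 1416881_at and 1448503_at they were 0.043 and −0.20.

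MCL1 is also needed by neutrophils, and a whole thymus preparation can hold such cells. Of 14 neutrophil marker genes, 14 were tested, and 7 were higher in the arrays labelled *SCL-LMO1* without overlap, against 7.36% of all probe sets. The list did not move as 1, since 9 of the 14 were above 0 and 5 were not. Among those 5 were *Il1b* (−0.26), *Cxcr2* (−0.14) and *Csf3r* (−0.045). In limma 0 of the 14 passed the adjusted threshold, while rank products at 0.1 called 6, all higher, among them *S100a8* with a difference of 2.09. Their mean level ran from 6.46 to 7.07 over these arrays and from 5.66 to 6.28 over the control arrays. In bulk RNA, fewer cells of a type and less RNA per cell cannot be told apart. The part of these cells in the *Mcl1* values was not tested.

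Among the pro-death genes, *Bcl2l11* had the largest differences of all members. It encodes BIM, a BH3-only protein that binds all pro-survival members, and 3 of its 5 probe sets passed the filter. For 1456005_a_at values were 10.25, 10.57 and 10.24 under the label *SCL-LMO1*, against 10.27, 9.57 and 9.48 in the control arrays. Control replicate 1 lay within the range of the arrays labelled *SCL-LMO1*, and the other 2 control arrays lay well under it. The difference was 0.58 (SE 0.22, 95% CI 0.08 to 1.08), or 1.50-fold, with an unadjusted p of 0.0273 and an adjusted p of 0.490 in limma. Weighting the arrays by their quality in limma brought the adjusted p to 0.0479, where 360 of all probe sets passed, and it ran from there to 1.00 over the 16 alternatives.

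Control replicate 3 was also the lowest array in the other tested *Bcl2l11* probe sets. For 1435448_at values were 8.47, 8.45 and 8.47 against 8.58, 7.98 and 7.59, with a difference of 0.41 (SE 0.23, limma adjusted p = 0.610), which was 0.18 without control replicate 3 and 0.68 without control replicate 1. The arrays labelled *SCL-LMO1* differed among themselves by an SD of 0.015 and the control arrays by 0.50. In 1456006_at, by contrast with the other tested *Bcl2l11* probe sets, control replicate 2 lay above all arrays labelled *SCL-LMO1*. Its values were 6.11, 6.06 and 6.12 against 6.22, 6.17 and 5.64, with a difference of 0.089 (limma adjusted p = 0.867). Control replicate 1 was the highest of the 6 arrays for 1435448_at and 1456006_at. As the mean of its 3 tested probe sets, *Bcl2l11* differed by 0.36, and *Mcl1* as the mean of its 6 by 0.22.

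The other BH3-only genes differed by less than the spread between arrays. *Bid*, whose product is activated when caspase-8 cuts it, had values of 5.65, 5.68 and 5.85 against 5.79, 5.51 and 5.02 for 1417045_at, a difference of 0.29 (SE 0.20, limma adjusted p = 0.663). It was 0.077 without control replicate 3 and 0.46 without control replicate 1. *Bbc3*, the p53 target that encodes PUMA, had values of 5.63, 5.49 and 5.13 against 5.53, 5.71 and 5.51 for 1423315_at, a difference of −0.17 (SE 0.17, limma adjusted p = 0.740), which was −0.025 without *SCL-LMO1* replicate 3 and −0.28 without *SCL-LMO1* replicate 1. The groups overlapped in both genes, and *Bbc3* was the tested pro-death gene with a difference under 0. *Bad*, which is held inactive by phosphorylation in cells that receive growth factors, had values of 5.58, 5.60 and 5.33 against 5.51, 5.21 and 5.65 for 1416582_a_at, a difference of 0.049 (limma adjusted p = 0.923).

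The remaining 10 probe sets lay under the filter and were not tested. They include both probe sets of *Bak1*, an effector, and the probe set of *Pmaip1*, which encodes NOXA, the BH3-only partner of MCL1. Their means over the 6 arrays lay between 3.74 and 5.04, where the 40th percentiles of the arrays were 5.05 to 5.24. *Bak1* had 4.89 ± 0.23 (SD, n = 3) against 4.88 ± 0.10 (SD, n = 3) for 1418991_at, and 3.92 ± 0.20 against 4.08 ± 0.12 for 1425716_s_at. *Pmaip1* had 3.89 ± 0.13 against 3.78 ± 0.25 for 1418203_at. *Bcl2l1* 1426191_a_at had the largest difference among the untested, −0.30, with values of 5.08, 4.76 and 4.79 against 4.86, 5.32 and 5.33, and its groups overlapped. The other low probe sets of *Bcl2l1* had means of 3.68 against 3.81 (1420887_a_at) and 4.35 against 4.51 (1426050_at), and those of *Bcl2l11* had 3.89 against 4.01 (1426334_a_at) and 5.08 against 5.01 (1435449_at). The second probe sets of *Bid* (1448560_at) and *Bad* (1416583_at) had 4.70 against 4.76 and 4.64 against 4.45. A level this low is a limit of the arrays and does not show that the genes are off. The filter keeps probe sets by level and ignores the labels.

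**Figure D2:**
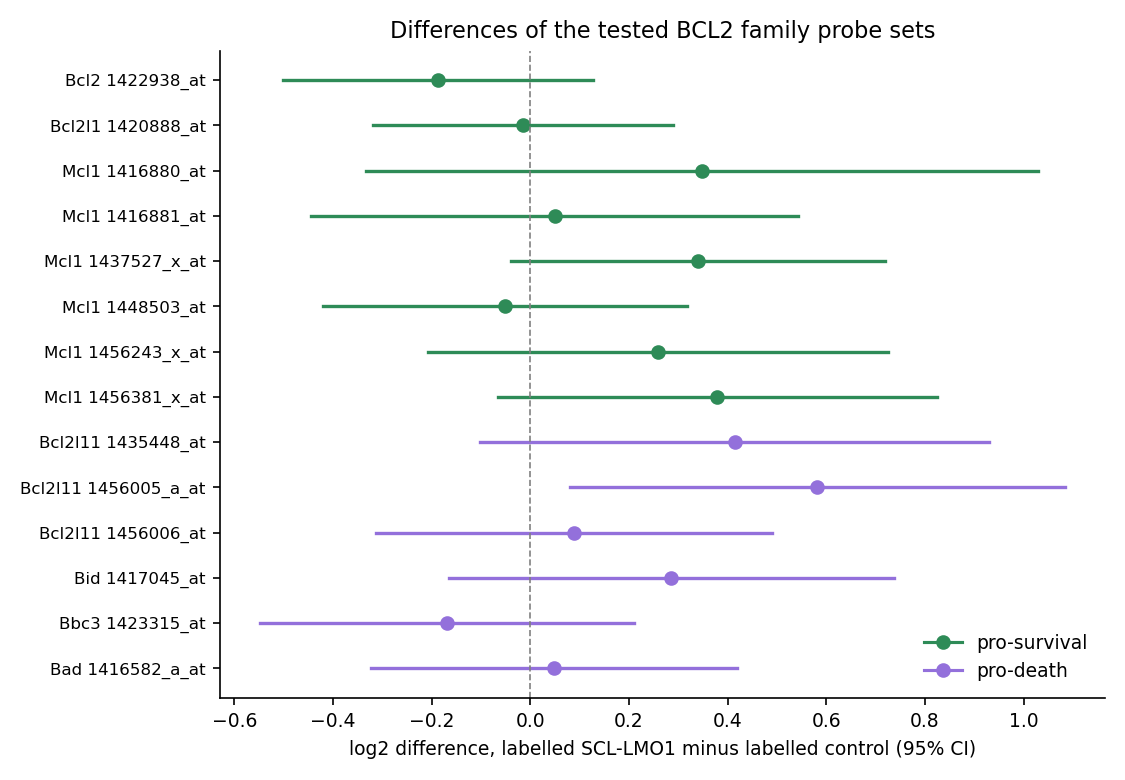
Log2 difference of the arrays labelled *SCL-LMO1* minus those labelled control (horizontal axis) for each tested probe set of the BCL2 family, with 95% confidence intervals from limma as lines. The interval includes 0 for 13 of 14 probe sets, and *Bcl2l11* 1456005_a_at, from 0.08 to 1.08, is the exception.

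Pro-survival and pro-death members were then set side by side. The median difference was 0.15 over the 8 pro-survival probe sets, with 5 above 0, and 0.19 over the 6 pro-death probe sets, with 5 above 0, where all probe sets tested had a median of −0.0006. The members' SEs lay between 0.14 and 0.30. Without control replicate 3 the pro-survival median was −0.035 and the pro-death median was 0.11, and without control replicate 1 they were 0.34 and 0.33. The mean of the pro-survival probe sets minus that of the pro-death probe sets was 1.46, 1.46 and 1.59 under the label *SCL-LMO1*, against 1.55, 1.71 and 1.45 in the control arrays. This balance overlapped between the labels, and control replicate 2 was its highest array. Of the 6 *Mcl1* and 3 *Bcl2l11* probe sets, those of a gene share their target, so the counts are not counts of genes.

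The arrays also fall into 2 sets by their bacterial hybridization controls, which are spiked in at fixed amounts, and the members' differences were computed within each. The mean of 9 control probe sets had its lowest values in control replicate 1 (9.78) and, under the label *SCL-LMO1*, in replicates 2 (9.12) and 3 (9.36), called the low set here. It was 10.56 in *SCL-LMO1* replicate 1 and 10.76 and 10.78 in the other control arrays, called the high set. These sets were drawn from the values and not from the labels, which name no batch. Within the low set the median difference of the members was −0.078, with 2 of 14 above 0. Within the high set it was 0.29, with 11 of 14 above 0. Over all probe sets the medians were 0.0093 and −0.0005.

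For *Bcl2l11* 1456005_a_at the low set gave a difference of 0.13 and the high set 0.72, and for *Mcl1* 1437527_x_at they gave 0.14 and 0.50. *Mcl1* 1456381_x_at and *Bcl2l11* 1435448_at turned from −0.032 and −0.12 in the low set to 0.68 and 0.68 in the high set. *Bcl2* was below 0 in both, at −0.25 and −0.089. Each set holds 1 array of 1 of the labels, so these are values without a test. With the set as a block in limma, 0 of 14 passed and the lowest adjusted p was 0.475.

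**Figure D3:**
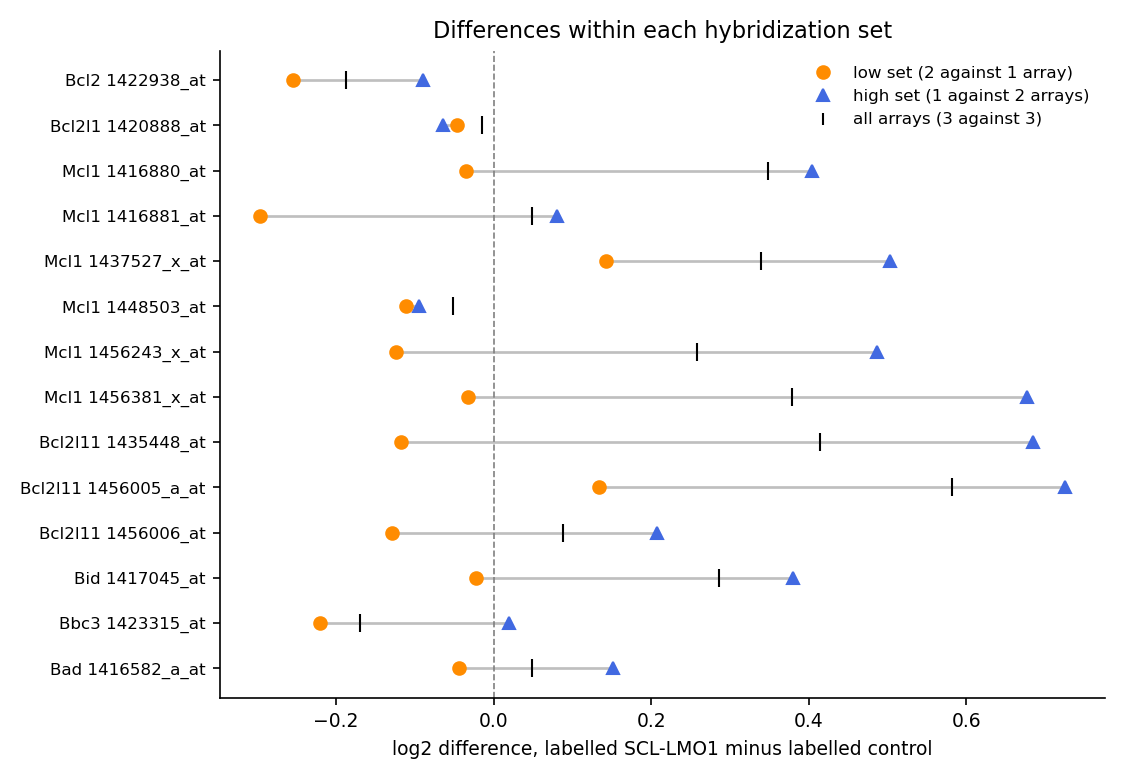
Log2 difference of the arrays labelled *SCL-LMO1* minus control (horizontal axis) for each tested BCL2 family probe set, within the low hybridization set (circles), within the high set (triangles) and over all 6 arrays (ticks). The triangle lies to the right of the circle for 13 of the 14 probe sets, and 2 circles lie above 0.

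Within the control arrays the low set is 1 array, so its values cannot be told apart from those of control replicate 1. Control replicate 1, the control array of the low set, exceeded the mean of control replicates 2 and 3 for 13 of 14 members, with a median excess of 0.42, where 53.3% of all probe sets had an excess and their median was 0.030. Taken apart, it was higher than control replicate 3 for 13 of 14 and higher than control replicate 2 for 10 of 14, against 50.5% and 53.1% of all. Among the arrays labelled *SCL-LMO1*, the low set exceeded the high set for 6 of 14 members, with a median of −0.015. Control replicate 3 was the lowest of all 6 arrays for 10 of 14 members, against 25.0% of all probe sets, a comparison chosen after the values were seen. These were the 6 probe sets of *Mcl1*, the 3 tested of *Bcl2l11* and the 1 tested of *Bid*. Probe sets of a gene share their target, so none of the counts of members here counts genes. The signal of *Actb* probes at the 3′ end less that at the 5′ end, which grows as RNA degrades, was 2.52, 1.48 and 2.86 in control replicates 1, 2 and 3, and between the labels an exact permutation test gave p = 0.8, where 0.1 is the smallest possible. For *Gapdh* it was 3.17, 2.38 and 3.01 (exact permutation p = 0.3 between the labels), with control replicate 1 the highest of the control arrays. Replicates 1, 2 and 3 labelled *SCL-LMO1* had 2.71, 2.26 and 2.54 for *Actb* and 3.51, 3.12 and 3.10 for *Gapdh*. The part of hybridization or RNA integrity in the members' values was not tested.

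Outside the list, the other genes of the BCL2 family had a median difference of −0.12 over 7 of 15 genes that were tested, and 0 passed limma. Each of these other genes was read by its tested probe set with the highest mean. *Bnip3*, a hypoxia-induced BH3-like gene linked to the removal of mitochondria, was the lowest, with 6.76, 6.73 and 6.64 against 7.21, 7.19 and 7.34. All 3 arrays labelled *SCL-LMO1* lay under all control arrays, and the difference of −0.54 (SE 0.13) had a limma adjusted p of 0.299. Within the hybridization sets it was −0.53 and −0.50. *Bok*, a relative of *Bax*, differed by −0.33 (limma adjusted p = 0.608) and *Bcl2l14* by 0.23 (limma adjusted p = 0.655), both with overlap. They were −0.22 without control replicate 3 and 0.13 without control replicate 2. As the mean of its 2 tested probe sets, *Bcl2l14* differed by 0.12.

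Genes of the apoptosome, caspases and their inhibitors act after the mitochondrial step. Of 18 listed, 16 were tested, with 13 above 0 (49.8% of all probe sets), a median of 0.12 and 0 passing limma, and 3 were higher without overlap (7.36% of all). *Birc5*, which encodes survivin and is expressed in dividing cells, had 6.93, 7.11 and 7.35 against 6.49, 6.37 and 6.64, a difference of 0.63 (SE 0.16, limma adjusted p = 0.306, and 0.0404 with array weights). Over its 16 alternatives the limma adjusted p of *Birc5* ran from 0.0404 to 0.9998. *Cycs*, which encodes the cytochrome c that leaves permeabilized mitochondria, differed by 0.44 (SE 0.16, limma adjusted p = 0.487), and *Aifm1*, a mitochondrial flavoprotein, by 0.38 (SE 0.16, limma adjusted p = 0.534), or by 0.25 without *SCL-LMO1* replicate 3. *Birc5*, *Cycs* and *Aifm1* were above 0 within both hybridization sets. Of 10 death receptor and adaptor genes, 6 were tested with a median of 0.016 and 0 passed limma. The largest differences there were 0.22 for *Traf2*, −0.20 for *Fadd* and −0.13 for *Fasl*, and in all 3 the groups overlapped. Leaving out 1 array moved each by over 1.5 times, to as little as 0.085 for *Traf2* (without control replicate 3), −0.097 for *Fadd* (without *SCL-LMO1* replicate 3) and −0.086 for *Fasl* (without control replicate 2).

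Genes that control BCL2 proteins had larger single differences and no common direction. Of 28 listed, 25 were tested, with 12 above 0, a median of −0.0011 and 0 passing limma. *Il7r*, the interleukin 7 receptor chain through which thymic progenitors maintain BCL2 and MCL1, had 9.14, 9.77 and 9.72 against 8.76, 8.34 and 7.95. Every array labelled *SCL-LMO1* lay above every control array, and the difference of 1.20 (SE 0.24, limma adjusted p = 0.191) had a rank products value of 0.0148, an estimated share of false calls. It was 0.99 and 1.00 within the low and high hybridization sets.

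*Stat5a*, a transcription factor activated by that receptor, had 7.71, 8.19 and 8.23 against 9.06, 8.59 and 8.45, a difference of −0.66 (SE 0.21, limma adjusted p = 0.434). It was −0.86 and −0.81 within the hybridization sets. *Fbxw7*, a ubiquitin ligase subunit that targets MCL1, NOTCH1 and MYC for degradation, differed by 0.60 (SE 0.21, limma adjusted p = 0.475) without overlap, and by 0.37 without control replicate 2. As the mean of its 2 tested probe sets, *Fbxw7* differed by 0.42. With array weights, *Il7r* (adjusted p = 0.0103) and *Fbxw7* (adjusted p = 0.0420) passed limma. In that setting 360 of all probe sets passed. Over the 16 alternatives the limma adjusted p rose as high as 0.821 for *Il7r* and 0.9998 for *Fbxw7*. In *Stat5a* and *Fbxw7*, as in *Il7r*, no array of one label lay within the range of the other.

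Target genes of p53 outside the family had a median of 0.16 over the 10 of 12 that were tested, with 6 above 0 and 0 passing limma. *Cdkn1a*, the cell cycle inhibitor p21, had 8.86, 8.61 and 8.82 against 7.95, 7.55 and 7.35. The groups lay apart, and the difference of 1.14 (SE 0.18) had a limma adjusted p of 0.0890 and a rank products value of 0.0146. Its adjusted p in limma was 0.0114 with array weights and 0.0436 without control replicate 1, but it rose as high as 0.491 over the 16 alternatives. *Polk*, a DNA polymerase, differed by 0.42 (SE 0.14, limma adjusted p = 0.440) without overlap, but by 0.16 as the mean of its 2 tested probe sets. *Btg2*, an antiproliferative gene, differed by 0.35 (SE 0.26, limma adjusted p = 0.677) with overlap, and by 0.048 without control replicate 3. Inside the family, the p53 targets *Bbc3* and *Pmaip1* differed by −0.17 and, untested, by 0.11.

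**Figure D4:**
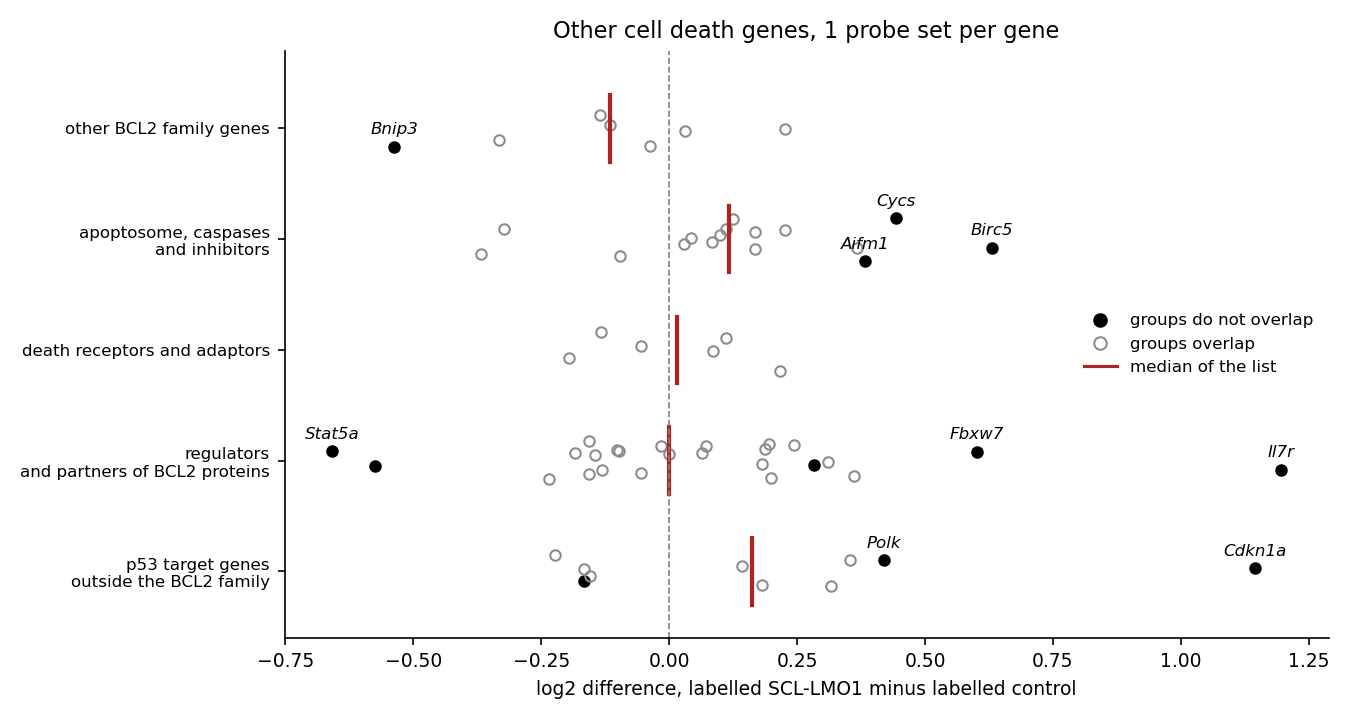
Log2 difference of the arrays labelled *SCL-LMO1* minus control (horizontal axis) for the tested genes of 5 lists outside the BCL2 family members, 1 probe set a gene. Filled points mark genes whose groups do not overlap, red bars mark list medians, which lie between −0.12 and 0.16, and vertical scatter within a list carries no value. *Il7r* at 1.20 and *Cdkn1a* at 1.14 lie farthest from 0.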

How the data were processed

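The deposited values are on the log2 scale, from the RMA procedure that the authors ran in the affy package on 6 Affymetrix mouse arrays. RMA is meant to even out array distributions, so only relative changes are seen. The deposited values were not fully even, with array medians from 5.57 in *SCL-LMO1* replicate 3 to 5.70 in control replicate 3. The authors also removed probe sets called absent by MAS5 before their test, which was not repeated here. A filter blind to the labels asked for at least 3 of 6 arrays at or above their own 40th percentile and passed 13776 of 22690 probe sets. The labels were set against each other in limma 3.58.1 (R 4.3.3), without covariates, two-sided, with Benjamini-Hochberg adjustment over all probe sets kept. Rank products used 9 pairwise differences and 100 permutations. The code was tested on simulated data. Probe sets of a gene were kept apart, and of each other list the 3 genes with the largest difference are named. Members, lists and tests were chosen with earlier results of these data known. The number of arrays limits the precision. Alternatives were other filters, scalings, variance models, blocks, gene summaries, thresholds and each array left out.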

Additional observations from a re-analysis of the deposited data

How the results depend on the processing

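With array weights, *Bcl2l11* 1456005_a_at passed limma with a difference of 0.80 and an adjusted p of 0.0479, so that 1 of 14 member probe sets passed and 2 had an unadjusted p under 0.05, but 360 of all 13776 probe sets passed against 14 without weights. Over its 16 alternatives the adjusted p of that probe set ran from 0.0479 to 1.00. In each other alternative 0 members passed. Their count at an unadjusted p under 0.05 was 0 when the probe sets of a gene were averaged, and from 0 to 5 when an array was left out, with 5 without control replicate 1, where the lowest adjusted p was 0.113, and 0 without control replicate 2 or 3 or *SCL-LMO1* replicate 2. The counts over all probe sets were 7 to 20 when an array was left out, 110 and 32 by rank products at 0.1 and 0.01. The pro-death median was 0.41 with the filter at the 60th percentile, where fewer probe sets remain. The pro-survival median ran from −0.035 to 0.34 and the pro-death median from 0.11 to 0.33 when an array was left out, and over all 24 probe sets they were −0.015 and 0.063.

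Signs turned for 6 members, all with a high adjusted p, and the cause was not tested. With arrays left out in turn, *Bcl2l1* 1420888_at ran from −0.054 to 0.028, *Mcl1* 1416880_at from −0.051 to 0.58, *Mcl1* 1416881_at from −0.17 to 0.27, *Mcl1* 1448503_at from −0.19 to 0.037, *Bcl2l11* 1456006_at from −0.097 to 0.19 and *Bad* 1416582_a_at from −0.075 to 0.15. The turning arrays were control replicate 3 for *Mcl1* 1416880_at and 1416881_at and *Bcl2l11*, control replicate 2 for *Bad* and *Mcl1* 1448503_at (0.037), control replicate 1 for *Mcl1* 1448503_at (0.0013) and *Bcl2l1* (0.022), *SCL-LMO1* replicate 1 for *Bcl2l1* and *SCL-LMO1* replicate 2 for *Mcl1* 1416881_at (−0.0074). *Bcl2l1* was also 0.033 with arrays centred on their medians and 0.064 with array weights, and *Mcl1* 1416881_at was −0.11 with the hybridization set as a block. Outside the members, *Birc5* (0.68), *Fbxw7* (0.88), *Il7r* (1.37) and *Cdkn1a* (1.08) passed with array weights, and *Cdkn1a* also without control replicate 1 (1.31). None of these genes passed in any other alternative. Array centring and a further quantile normalization were chosen after seeing the data for the hybridization controls alone, whose difference of −0.77 became −0.72 and −0.85.

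With the replicate number as a block, 0 members passed, 1 had an unadjusted p under 0.05, and 8 of all probe sets passed. The deviations of arrays with the same number from their group means correlated at −0.63, 0.054 and −0.38, which gave no ground to pair them.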
